A study of Mus musculus with 22 samples.

Results

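The nuclear-encoded subunits of the mitochondrial respiratory chain and the ATP synthase were followed across age and diet in the mouse hippocampal CA1 region. Members were all rows of the expression matrix whose symbol fits the naming of these subunits (Nduf with a letter a, b, c, s or v and a number, Uqcr, Sdha to Sdhd, Cox4 to Cox8 with a letter a to c, and Atp5 with a letter a to o). The rule used names and no measured value. It took 80 of 23361 genes: 37 of complex I, 4 of complex II, 8 of complex III, 16 of complex IV and 15 of complex V. Cox8c, a testis isoform of complex IV, was listed at 0 in all 22 libraries, and the other 79 members passed the filter on low values and were tested.

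Female wild-type mice of a Swiss Webster x DBA/C57BL6 F1 background were fed ad libitum (AL) or a calorie-restricted (CR) diet lowered in carbohydrates, and microdissected CA1 tissue was taken at 5 or 15 months of age. The diets began at the same young-adult age in all groups, so CR mice at 15 months had been restricted for longer than those at 5 months. Age and length of restriction therefore cannot be told apart in CR mice. The AL and CR groups held 5 mice each at 5 months and 6 mice each at 15 months, with 1 mRNA library per mouse and no transgene in any group. The values are FPKM, fragment numbers scaled to transcript length and to the fragments mapped in the library, so levels of different genes can be set side by side per length. Log2 fold changes were fitted on log2(FPKM + 0.1) with the limma moderated test over 16978 genes, and a gene was called at a Benjamini-Hochberg adjusted p under 0.05. CA1 is a bulk tissue here, so fewer cells of a type and less RNA per cell cannot be told apart.

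The respiratory chain passes electrons from NADH (complex I, NADH dehydrogenase) and succinate (complex II, succinate dehydrogenase) through ubiquinone to complex III, from there by cytochrome c to complex IV, cytochrome c oxidase, and finally to oxygen. Complexes I, III and IV pump protons out of the mitochondrial matrix, and complex V, the ATP synthase, lets them back to make ATP. Neurons draw most of their ATP from this pathway. Each complex has a few core subunits, which carry the redox centers or the catalytic sites, and, apart from complex II, many small accessory subunits. All complexes except complex II also hold subunits encoded by mitochondrial DNA. The matrix held 0 rows for those genes, so only the nuclear-encoded part of the chain is described. Cox4i1, Cyc1, Ndufab1 and a few others are subunits or associated proteins whose symbols fall outside the rule.

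Nearly all members were abundant, with 73 of the 79 above a mean of 20 FPKM over the 22 libraries. Cox8a, a small membrane subunit of complex IV, had the highest mean at 589 FPKM, followed by Cox6a1 of the same complex at 504 FPKM and Atp5b, the catalytic beta subunit of the ATP synthase, at 491 FPKM. Within complex I the mean level ran from 413 FPKM for Ndufa4, which is now placed with complex IV, down to 46.3 FPKM for Ndufs4 and 23.4 FPKM for Ndufa11. Levels of complex II were closer together, with 154 FPKM for the flavoprotein Sdha, 122 FPKM for the iron-sulfur subunit Sdhb, 78.8 FPKM for the anchor Sdhd and 74.3 FPKM for the anchor Sdhc. In complex III the hinge protein Uqcrh led at 291 FPKM and the Rieske iron-sulfur protein Uqcrfs1 was lowest at 98.4 FPKM. The 6 members under 20 FPKM were Ndufa4l2, Cox6a2, Cox6b2, Cox7a1, Cox7b2 and Cox8b, alternative isoforms known mainly from muscle, testis or hypoxic cells. Their means lay between 1.77 FPKM (Cox7b2) and 7.07 FPKM (Cox6a2).

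**Figure D1:**
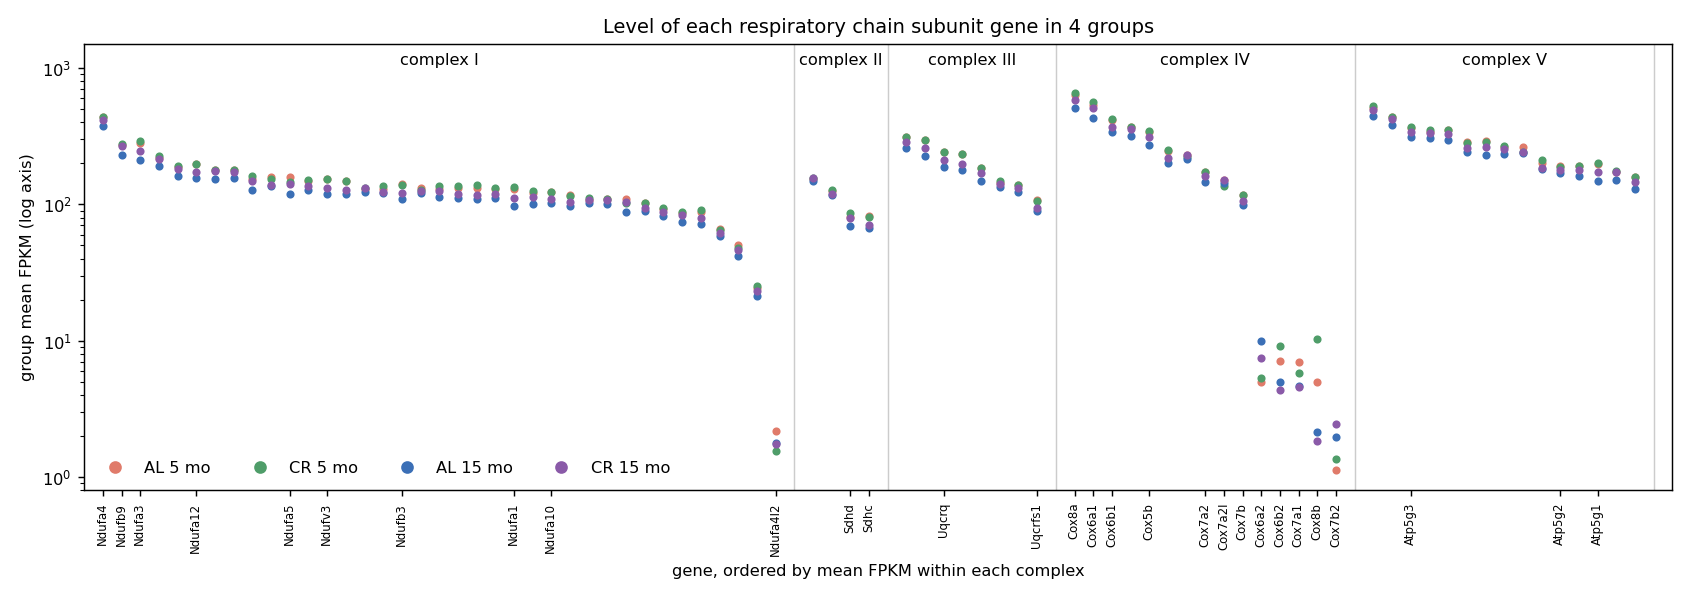
Mean FPKM in each of the 4 groups (1 point per group, log axis) for the 79 members above 0, ordered by level within complexes I to V, with names for the members given full statistics. The 73 abundant members form a band above 20 FPKM in which the AL group at 15 months (blue) is usually the lowest point, and the 6 low-level isoforms lie apart below it.

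The libraries differed in these genes before any comparison of groups. In each library the level was summarized as the median over members of the deviation from the mean of the 22 libraries on the log2 scale. At 5 months, AL replicates 0 and 3 stood at -0.04 and -0.03 while AL replicates 1, 2 and 4 stood at 0.16, 0.20 and 0.18. The CR libraries at 5 months divided the same way, with replicates 0 and 3 at -0.03 and -0.04, replicate 1 at 0.09, and replicates 2 and 4 at 0.27 and 0.24. The AL libraries at 15 months were all below 0, from -0.28 (replicate 1) to -0.02 (replicate 3).

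Among CR mice at 15 months, replicate 2 stood apart at 0.38, while the other 5 libraries lay between -0.15 and -0.02. This library was the highest of its group in 72 of 79 members (91.1%), against 21.5% of all genes tested. Complexes moved together within it, with medians of 0.40 for complex I, 0.23 for II, 0.38 for III, 0.43 for IV and 0.37 for V. Its cytosolic ribosomal protein genes stood at 0.61. Counts and medians that involve this group, and the members named in its comparisons, are therefore also given without replicate 2.

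**Figure D2:**
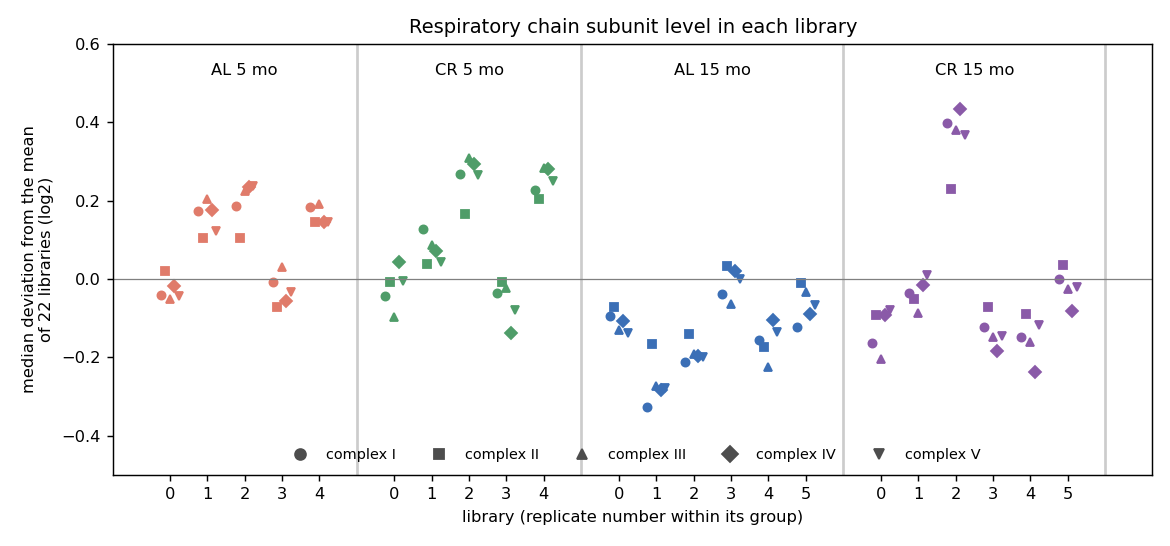
Median deviation of the members of each complex from the mean of the 22 libraries (log2, y axis) for every library (x axis, replicate numbers within each group), with 1 symbol per complex. The 5 complexes stay together within each library, and replicate 2 of the CR group at 15 months lies at 0.23 to 0.43, apart from the other 5 of its group.

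Within groups, the members varied as a block. The first principal component of their deviations from the group means held 66.8% of the variance over the 79 members, and 77 of them loaded on it with the same sign. For the other sets a first component was computed anew from the genes of each set. It held 13.9% over all genes tested and 20.0% over the 5043 genes with a mean of at least 20 FPKM. It held 81.5% over 81 cytosolic ribosomal protein genes, another set of short, abundant transcripts. The median transcript length was 581 nucleotides for the members and 1440 for all genes tested. These shares describe the libraries and carry no test.

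The effect of age under the AL diet gave the most calls among these genes. In AL mice, 17 of the 79 members were differentially expressed between 15 and 5 months, of which 16 fell and 1, Cox6a2, rose. Over all genes tested 20.6% were called in this comparison, 9.97% lower and 10.7% higher, so the share of members called in either direction was near the background while the share that fell was above it. The median log2 fold change was -0.24 over the members, a difference in level of -15.6%, and -0.0018 over all genes tested. The log2 fold change was negative for 77 of 79 members, against 50.2% of all genes, and for all 73 members above 20 FPKM, while with quantile normalization it was negative for 70 of the 79. Over all genes, shifting the libraries to a common median moved the split from 1693 lower and 1809 higher to 2286 lower and 1441 higher, and 25 members then fell. Summed FPKM over all rows ran from 924122 to 1176890 in the AL libraries at 5 months and from 639064 to 964105 at 15 months. Of these sums the members made up 1.27% to 1.67% at 5 months and 1.31% to 1.76% at 15 months. By this share no AL library at 15 months lay below the lowest at 5 months. No fold change was fitted on that scale. In 8 members every AL library at 15 months lay below every AL library at 5 months (Ndufa1, Ndufa3, Ndufa12, Ndufb11, Sdhc, Uqcrfs1, Atp5g1 and Atp5g2), a pattern held by 6.77% of all genes. Ndufb11 and Atp5g2 were not among those called.

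The median change was small in all 5 complexes. The median log2 fold change was -0.23 for complex I (8 of 37 fell), -0.16 for complex II (1 of 4), -0.31 for complex III (4 of 8), -0.27 for complex IV (1 of 15 fell and 1 rose) and -0.20 for complex V (2 of 15). Over all genes tested 9.97% were called lower and 10.7% higher. A list of 19 core and catalytic subunits included all 4 complex II genes, the 2 core proteins of complex III and 5 subunits of the ATP synthase F1 head. Of these 19, 2 fell (Sdhc and Uqcrfs1), a share near that of all genes called lower, and the median was -0.17. Among them Sdha had mean levels of 154 FPKM at 5 months and 149 FPKM at 15 months. Whether core and accessory subunits differ was not tested.

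**Figure D3:**
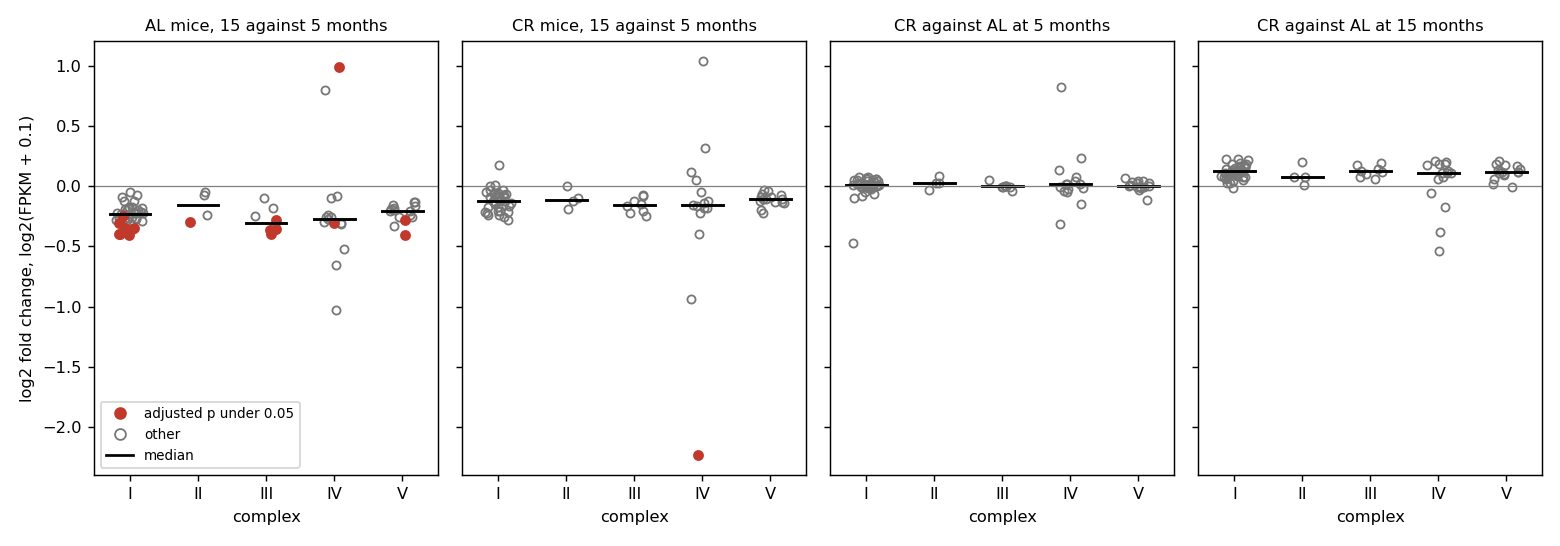
Log2 fold change on the log2(FPKM + 0.1) scale (y axis) of each member tested, by complex (x axis), in 4 comparisons, with filled points for an adjusted p under 0.05 and a bar for the median of each complex. In AL mice nearly all points lie below 0 with medians of -0.16 to -0.31, in CR mice the medians are closer to 0, and the medians of CR against AL lie near 0 at 5 months and above 0 at 15 months.

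Complex II gave the member with the smallest p. Sdhc, a heme-binding membrane anchor of succinate dehydrogenase on chromosome 1 (171127165 to 171150603, GRCm38), was at 76.6, 82.5, 88.8, 77.6 and 85.1 FPKM in the 5 AL libraries at 5 months. At 15 months the AL libraries ran from 62.3 to 73.0 FPKM with a median of 66.9. No library at 15 months reached the lowest one at 5 months. The younger mean of 82.1 ± 5.13 FPKM (SD, n = 5) stood against an older mean of 66.8 ± 4.07 FPKM (SD, n = 6). This was a log2 fold change of -0.30 ± 0.07 (SE), with a limma adjusted p of 0.0039, and the exact two-sided permutation test gave p = 0.0022, the smallest that 462 relabelings allow.

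In complex III the fall included Uqcrfs1, the Rieske iron-sulfur protein that takes electrons from ubiquinol, on chromosome 13 (30540308 to 30545362). Its AL libraries at 5 months were at 109, 110, 109, 100.2 and 111 FPKM, and those at 15 months ran from 81.6 to 97.7 FPKM with a median of 87.8. The groups did not overlap, although replicate 3 at 5 months was close to the highest library at 15 months. The log2 difference amounted to -0.28 ± 0.07 (SE, limma adjusted p = 0.0056; exact permutation p = 0.0043). Uqcrq, a small accessory subunit beside cytochrome b, went from a mean of 241 ± 10.05 FPKM to 189 ± 22.1 FPKM (SD; log2 fold change -0.36 ± 0.10 SE, limma adjusted p = 0.020). Its groups overlapped through 1 library, AL replicate 0 at 15 months, at 230 FPKM. The small subunits Uqcr10 and Uqcr11 also fell, with means of 232 and 298 FPKM at 5 months against 180 and 225 FPKM at 15 months.

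In complex V the largest fall was that of Atp5g1, 1 of 3 genes that encode the same mature subunit c of the rotating proton ring. Atp5g1 lies on chromosome 11 (96068852 to 96075670). The AL libraries at 5 months were at 173, 218, 211, 174 and 206 FPKM, and those at 15 months ran from 137 to 159 FPKM with a median of 148. The AL libraries at 15 months were also close to one another, with a coefficient of variation of 5.00%. Its change on the log2 scale was -0.41 ± 0.10 (SE, limma adjusted p = 0.0072; exact permutation p = 0.0022), and the level fell by 24.5%. The other two genes of subunit c did not pass: Atp5g2 had a log2 fold change of -0.16 ± 0.08 (SE, limma adjusted p = 0.17) with no overlap between the groups, and Atp5g3, the most abundant of the 3, -0.20 ± 0.09 (SE, limma adjusted p = 0.12). Whether Atp5g1 differs from these in its change was not tested. Atp5f1, subunit b of the stator, fell from a mean of 158 to 130 FPKM, and its exons overlap those of Wdr77 on the other strand.

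Complex I held 8 of the 16 members that fell, all accessory subunits. Ndufa12 was at 193, 199, 217, 174 and 205 FPKM in the AL libraries at 5 months and at 135 to 165 FPKM (median 159) at 15 months, with no overlap. This gave a log2 fold change of -0.35 ± 0.09 (SE, limma adjusted p = 0.0076; exact permutation p = 0.0022). Ndufa3 was at 239, 289, 317, 255 and 306 FPKM at 5 months and at 197 to 221 FPKM (median 215) at 15 months, again with no overlap. The fitted change was, in log2 units, -0.41 ± 0.12 (SE, limma adjusted p = 0.018), and its exons overlap those of Tfpt on the other strand, so reads of both genes could not be told apart. In both genes the AL replicates 0 and 3 were the lowest libraries at 5 months.

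Ndufa1, a membrane-arm subunit encoded on the X chromosome, was at 113, 136, 143, 114 and 137 FPKM in AL mice at 5 months and at 85.6 to 104 FPKM (median 100.9) at 15 months. These groups did not overlap, with a log2 fold change of -0.39 ± 0.12 (SE, limma adjusted p = 0.025). In the next 3 genes the groups overlapped. Ndufv3, a subunit of the NADH-oxidizing module, had a log2 fold change of -0.35 ± 0.10 (SE, limma adjusted p = 0.017). Values were -0.25 ± 0.07 for Ndufa10 (SE, limma adjusted p = 0.022) and -0.35 ± 0.11 for Ndufb3 (SE, limma adjusted p = 0.026). Ndufa5, on the matrix arm, and Ndufa13 fell from means of 157 and 88.4 FPKM to 119 and 71.4 FPKM.

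**Figure D4:**
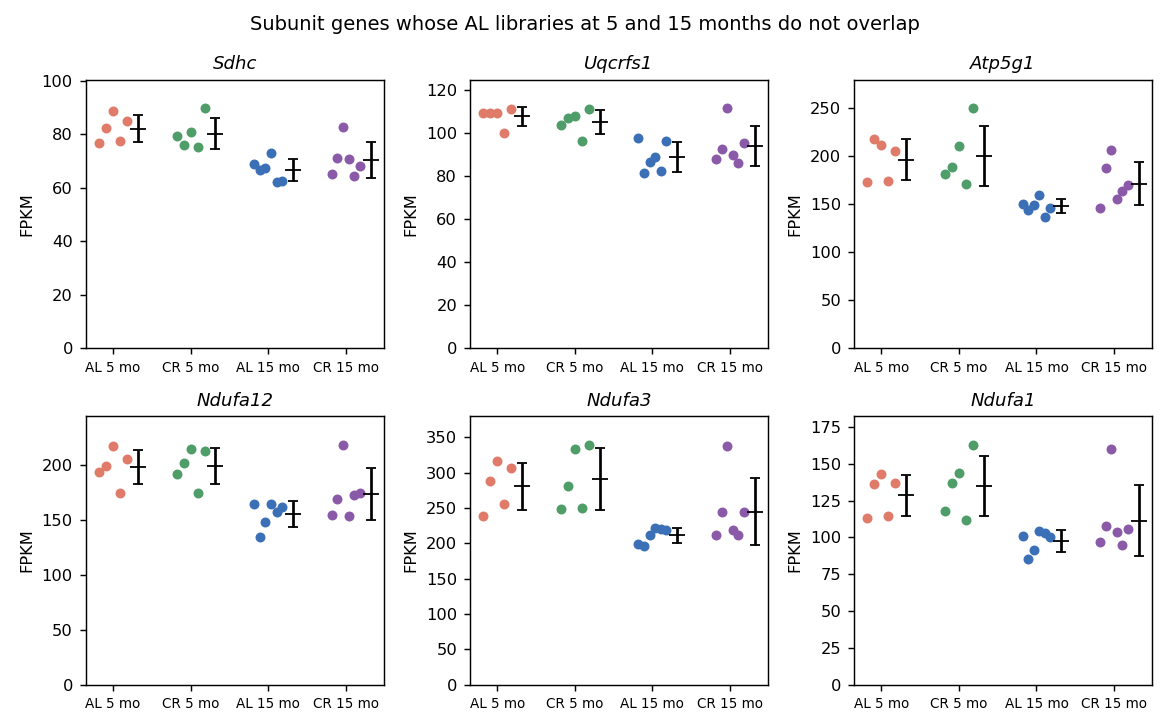
FPKM of Sdhc, Uqcrfs1, Atp5g1, Ndufa12, Ndufa3 and Ndufa1 in each library (points) in the 4 groups, with the mean and SD beside them and the axis starting at 0. Every AL library at 15 months lies below every AL library at 5 months in these 6 genes, and replicate 2 is the highest CR library at 15 months in each of them.

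In complex IV 1 of 15 members fell, against 9.97% of all genes. Cox5b, a zinc-binding subunit on the matrix side, was that member: its libraries were at 290, 354, 361, 332 and 363 FPKM at 5 months and at 239 to 293 FPKM (median 282) at 15 months. Those ranges met at replicate 0 of the younger group. Between the ages the log2 value differed by -0.31 ± 0.10 (SE, limma adjusted p = 0.031). The most abundant subunits, Cox8a and Cox6a1, had log2 fold changes of -0.32 ± 0.14 and -0.30 ± 0.13 (SE) and did not pass (limma adjusted p = 0.12 and 0.11). Cox7a2l, a supercomplex assembly factor, was at -0.08 ± 0.11 (SE, limma adjusted p = 0.64).

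How far these calls depended on single libraries was examined by leaving each of the 22 libraries out in turn. Members called in AL mice then numbered 7 without AL replicate 1, 8 without AL replicate 2 and 7 without AL replicate 4 at 5 months. They numbered 9 without AL replicate 1 at 15 months, and 35 without CR replicate 2 at 15 months, which enters the shared estimate of spread. Calls over all genes in these fits were, in the same order, 2583, 2382, 2536, 2892 and 3919, against 3502 in the main fit. Atp5g1, Ndufa12, Ndufv3, Sdhc, Uqcrfs1 and Uqcrq were called in all 22 fits. The median over members stayed between -0.29 and -0.21.

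Markers of neighboring regions moved with age in the same libraries. The 6 CA1 pyramidal neuron markers, all detected, summed to 232 to 507 FPKM in AL mice at 5 months and 180 to 278 FPKM at 15 months, and 4 of 6 fell. Of 10 neocortex and subiculum markers, summing to 257 to 363 and 170 to 322 FPKM, 4 rose and 1 fell. A region score, the mean log2 level of the neocortex and subiculum list minus that of the CA1 list, lay between -3.58 and -2.05 in AL mice at 5 months and between -1.32 and -0.14 at 15 months, without overlap, so region and age cannot be told apart in AL mice. With the region score as a covariate 0 members and 1 of all genes were called (2162 genes had an unadjusted p under 0.05), and the median over members was -0.16 with 68 of 79 negative. With the choroid plexus score as a covariate, an alternative added after seeing the data, 1 member (Uqcrfs1, limma adjusted p = 0.035) and 1061 of all genes were called, and the median over members was -0.24. This score, the mean log2 level of the choroid plexus list, also did not overlap between the ages in AL mice. It lay between -0.07 and 2.73 at 5 months and between -1.64 and -0.27 at 15 months. Of the other marker lists in AL mice with age, the choroid plexus fell in 5 of 8 genes, the dentate gyrus in 2 of 5, oligodendrocytes in 1 of 6 and microglia in 1 of 5. Astrocyte markers rose in 1 and fell in 1 of 6, and endothelium and erythrocyte markers gave 0 of 5 each. The part of these cell types in the members' values was not tested.

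The same age comparison in CR mice shares no library with that in AL mice. There 1 of 79 members, Cox8b, fell, and 0 rose, where 3.36% of all genes were called, 2.26% lower and 1.1% higher. The median log2 fold change was -0.12 over members and 0.0014 over all genes. It was negative for 72 of 79 members (60 with quantile normalization), against 49.4% of all genes, and these 72 were also negative in AL mice. All 16 members that fell in AL mice were among these 72. Since members vary together within groups, these are not 16 separate agreements, and the share for all genes that fell in AL mice was not computed. By complex the medians were -0.13, -0.11, -0.16, -0.15 and -0.10 for I to V. Without CR replicate 2 at 15 months, the median was -0.20 and 6 members were called, all lower. That fit called 700 of all genes, 441 of them lower, against 570 in the main fit. Without CR replicates 3 or 4 at 5 months, or CR replicates 0, 3 or 4 at 15 months, no member was called. Those fits called 347 to 775 of all genes. The region score lay between -3.38 and -2.44 in CR mice at 5 months and between -3.18 and -0.42 at 15 months. The CR groups thus overlapped in it. With this score as a covariate the median was -0.076, and 0 members and 139 of all genes were called.

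Sdhc, the leading member in AL mice, also had the third smallest p in CR mice. Its CR libraries were at 79.2, 75.9, 80.8, 75.2 and 89.7 FPKM at 5 months and ran from 64.2 to 82.7 FPKM (median 69.5) at 15 months. The ranges overlapped through CR replicate 2 at 15 months alone. The fit gave a log2 fold change of -0.19 ± 0.07 (SE) and did not pass (limma adjusted p = 0.12; exact permutation p = 0.028). Without CR replicate 2 at 15 months it was -0.24 and passed (limma adjusted p = 0.029), the 1 setting of 34 in which it did.

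At 5 months no difference between CR and AL mice passed the test in these genes. Of the members 0 were called, as were 0 of all 16978 genes (0%) by limma, with 1 member and 789 genes at an unadjusted p under 0.05. The median over members was 0.0075, with 48 of 79 positive. The 1 member was Ndufa4l2, a hypoxia-inducible relative of Ndufa4, at 2.04, 2.52, 1.93, 2.65 and 1.76 FPKM in AL mice and 1.504, 1.84, 1.496, 1.78 and 1.13 FPKM in CR mice. The ranges overlapped, with a log2 fold change of -0.47 ± 0.14 (SE, limma adjusted p = 0.90; exact permutation p = 0.024). Its exons overlap those of Shmt2 on the other strand. Next by p were Cox8b at 0.82 ± 0.59 (SE) and Cox7a2l at -0.14 ± 0.12 (SE), both with a limma adjusted p of 1.

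At 15 months, CR mice had slightly higher levels than AL mice in most members, but none passed the test. The limma test called 0 of 79 members, where 0.742% of all genes were called, and 2 members had an unadjusted p under 0.05. The log2 fold change was positive for 73 of 79 members with a median of 0.12, against -0.0012 over all genes. With quantile normalization it was positive for 70 members with a median of 0.06, against 0.03 over all genes. By complex the medians were 0.12, 0.07, 0.12, 0.11 and 0.12 for I to V. Without CR replicate 2 the median over members was 0.05, with 58 of 79 positive and again 0 called. This comparison shares its AL libraries at 15 months with the AL age comparison.

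The 3 members with the smallest p were Sdhd, Atp5g1 and Ndufb9. Sdhd, the second membrane anchor of complex II, ran from 60.6 to 78.2 FPKM (median 69.3) in AL mice and from 73.0 to 100.2 FPKM (median 75.3) in CR mice at 15 months. CR replicates 2 and 5 lay above every AL library, and the other 4 CR libraries lay within the AL range. The log2 difference amounted to 0.20 ± 0.08 (SE, limma adjusted p = 0.21; exact permutation p = 0.058), and 0.13 without replicate 2 (limma adjusted p = 0.37). Atp5g1 ran from 137 to 159 FPKM in AL mice and from 146 to 206 FPKM in CR mice. Its change on the log2 scale was 0.21 ± 0.09 (SE, limma adjusted p = 0.27; exact permutation p = 0.022), and 0.15 without replicate 2 (limma adjusted p = 0.45). Ndufb9, a complex I accessory subunit whose exons overlap a predicted gene on the same strand, was at 0.22 ± 0.11 (SE, limma adjusted p = 0.31), and at 0.12 without replicate 2 (limma adjusted p = 0.55).

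The age by diet interaction tests whether the difference between 15 and 5 months was the same under both diets. In CR mice that difference includes the longer restriction of the older mice. The interaction called 0 members and 0 genes (0%) by limma, with 1 member and 1301 genes at an unadjusted p under 0.05. Its median over members was 0.11, and 0.04 without CR replicate 2 at 15 months. The smallest p values belonged to Ndufa4l2 (0.45 ± 0.19 SE, limma adjusted p = 0.64), Ndufa5 (0.32 ± 0.18 SE, limma adjusted p = 0.68) and Cox6a2 (-0.67 ± 0.43 SE, limma adjusted p = 0.72). Without CR replicate 2 these were 0.43, 0.22 and -0.73 (limma adjusted p = 0.75, 0.82 and 0.79). CR mice at 15 months were also set against AL mice at 5 months, a comparison that shares libraries with those above. Here 0 members were called where 3.12% of all genes were, with 11 members at an unadjusted p under 0.05 and a median of -0.12. Without CR replicate 2 at 15 months 7 members were called, all lower, where 925 of all genes were called, 479 of them lower. Sdhc led at -0.23 ± 0.07 (SE, limma adjusted p = 0.066), followed by Uqcrfs1 at -0.20 ± 0.07 (SE, limma adjusted p = 0.092) and Cox7a1 at -0.71 ± 0.27 (SE, limma adjusted p = 0.15). Without that library Sdhc was at -0.27, Uqcrfs1 at -0.25 and Cox7a1 at -0.85 (limma adjusted p = 0.013, 0.016 and 0.065).

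Among the rare isoforms of complex IV, 1 was called in each age comparison. Cox6a2, the heart and skeletal muscle form of subunit 6a, which in brain is known from parvalbumin interneurons, was the 1 member that rose in AL mice. It was at 4.34, 2.91, 6.53, 6.22 and 4.94 FPKM at 5 months and at 6.75 to 14.7 FPKM (median 9.02) at 15 months, without overlap, a pattern held in this direction by 7.27% of all genes. This gave a log2 fold change of 0.98 ± 0.30 (SE, limma adjusted p = 0.026; exact permutation p = 0.0043), and its exons overlap those of Itgad on the other strand. In CR mice the level was 4.56 to 5.91 FPKM at 5 months and 2.58 to 13.2 FPKM at 15 months, where the groups overlapped. The call was lost without AL replicates 0 or 1 at 5 months (limma adjusted p = 0.050 and 0.082) and without AL replicates 0 or 5 at 15 months (limma adjusted p = 0.060 and 0.052).

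Pvalb, the parvalbumin gene, was singled out from the interneuron list after its values were seen. At 15 months the library with the highest Cox6a2 level also had the highest Pvalb level in both diets, 81.5 FPKM in AL replicate 0 and 80.1 FPKM in CR replicate 5. The AL libraries at 15 months kept the same order in both genes, except that replicates 2 and 4 were reversed. AL replicate 2 had the lowest Pvalb level of its group, 21.7 FPKM, with 8.08 FPKM of Cox6a2. AL replicate 4 had the lowest Cox6a2 level, 6.75 FPKM. The CR libraries at 15 months did not keep a common order throughout. CR replicates 0 and 2 had 8.04 and 8.09 FPKM of Cox6a2 with 25.2 and 76.8 FPKM of Pvalb. Between the ages Pvalb did not separate as Cox6a2 did in AL mice, with 49.0 to 69.1 FPKM at 5 months and 21.7 to 81.5 FPKM at 15 months. At 5 months AL replicate 2 was the highest of its group in both genes, with 6.53 FPKM of Cox6a2 and 69.1 FPKM of Pvalb. CR replicate 3 at 5 months had the lowest Pvalb level of its group, 43.9 FPKM, with 5.87 FPKM of Cox6a2. The 6 interneuron markers summed to 541 to 821 FPKM in AL mice at 5 months and 637 to 808 FPKM at 15 months, with 0 of 6 called in either age comparison. Their part in the Cox6a2 result was not tested.

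Cox8b, the muscle and brown fat form of subunit 8, was at 5.51, 3.21, 4.08, 10.7 and 27.5 FPKM in CR mice at 5 months and at 0.46 to 3.20 FPKM (median 1.91) at 15 months. The lowest young library lay just above the highest old one, and 2.11% of all genes showed such a gap in this direction. The fitted change was, in log2 units, -2.23 ± 0.57 (SE, limma adjusted p = 0.031; exact permutation p = 0.0043), and -2.44 without CR replicate 2 at 15 months (limma adjusted p = 0.025). In AL mice it was -1.03 ± 0.57 (SE, limma adjusted p = 0.20), with 1.83 to 10.6 FPKM at 5 months and 0.81 to 3.22 FPKM at 15 months.

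Genes of the choroid plexus, the epithelium that secretes cerebrospinal fluid and borders the hippocampus, also fell in CR mice with age. The 8 markers summed to 129 to 2347 FPKM in CR mice at 5 months and 6.25 to 34.2 FPKM at 15 months, and 8 of 8 fell. CR replicates 4 and 3 at 5 months, the highest 2 libraries for Cox8b, had 2058 and 955 FPKM of the marker Ttr, against 110 to 177 FPKM in the other 3. AL replicate 4 at 5 months was the highest of its group in both, with 10.6 FPKM of Cox8b and 314 FPKM of Ttr. Next in that group came AL replicates 2 and 1, with 5.72 and 4.28 FPKM of Cox8b and 185 and 133 FPKM of Ttr. Only AL replicates 0 and 3 were reversed, with 2.45 and 1.83 FPKM of Cox8b and 27.9 and 47.4 FPKM of Ttr. The other groups did not keep this order throughout. CR replicate 0 at 5 months had the lowest Ttr level of its group (110 FPKM) with 5.51 FPKM of Cox8b. At 15 months the highest Cox8b library of each diet, AL replicate 0 and CR replicate 2, had the lowest Ttr level of its group (0.98 and 2.04 FPKM). With the choroid plexus score as a covariate, an alternative added after seeing the data, the log2 fold change of Cox8b in CR mice was -0.33 (limma adjusted p = 0.98). The score lay between 1.41 and 5.85 in CR mice at 5 months and between -1.76 and -0.43 at 15 months, without overlap. Score and age therefore cannot be told apart in CR mice, and with this covariate 0 of all genes were called between the ages. Cox6b2, the testis form of subunit 6b, was also highest in CR replicate 4 at 5 months, at 17.95 FPKM, and its log2 fold change in CR mice was -0.93 ± 0.28 (SE, limma adjusted p = 0.073), and -1.03 without CR replicate 2 at 15 months (limma adjusted p = 0.053).

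**Figure D5:**
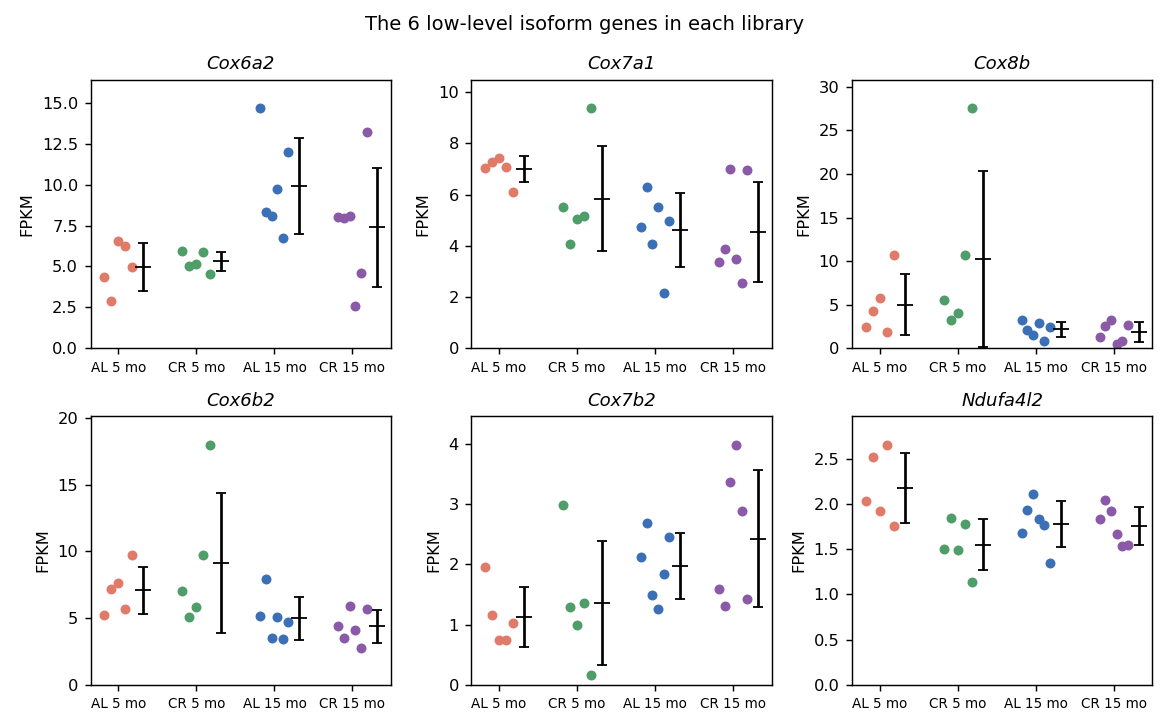
FPKM of the 6 members under 20 FPKM in each library (points) in the 4 groups, with the mean and SD beside them and the axis starting at 0. Cox6a2 is higher in every AL library at 15 months than at 5 months, and 1 CR library at 5 months (replicate 4) is the highest for Cox8b (27.5 FPKM), Cox6b2 (17.95 FPKM) and Cox7a1 (9.36 FPKM).

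Set against their abundant counterparts in AL mice, the isoform pairs showed the following log2 fold changes between 15 and 5 months. Subunit 7a had -0.66 ± 0.27 for the muscle form Cox7a1 and -0.25 ± 0.11 for the common form Cox7a2 (SE, limma adjusted p = 0.088 and 0.089). Subunit 6b had -0.52 ± 0.28 for Cox6b2 and -0.27 ± 0.11 for Cox6b1 (SE, limma adjusted p = 0.19 and 0.0996). Subunit 7b had 0.80 ± 0.44 for Cox7b2 and -0.26 ± 0.11 for Cox7b (SE, limma adjusted p = 0.21 and 0.093). Ndufa4l2 was at -0.27 ± 0.14 and Ndufa4 at -0.23 ± 0.16 (SE, limma adjusted p = 0.16 and 0.32). Of these, none passed. In CR against AL mice at 15 months, no isoform passed either: the values ran from -0.53 ± 0.29 for Cox6a2 (SE, limma adjusted p = 0.35) to 0.21 ± 0.13 for Cox6a1 (SE, limma adjusted p = 0.41). Without CR replicate 2 these were -0.59 and 0.12 (limma adjusted p = 0.37 and 0.67).

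Genes that serve the chain from outside it were counted from lists, to be read against the 9.97% of all genes that were called lower and the 10.7% called higher in AL mice with age. In AL mice between 15 and 5 months, 6 of 39 assembly factors fell and 0 rose, led by Tmem70, which helps to build the ATP synthase (log2 fold change -0.44 ± 0.08 SE, limma adjusted p = 0.0014). Of 17 citric acid cycle genes 5 fell, led by Pdhb of pyruvate dehydrogenase (-0.29 ± 0.07 SE, limma adjusted p = 0.0048). Of 12 membrane transport genes 3 fell, led by the ADP/ATP carrier Slc25a5 (-0.40 ± 0.09 SE, limma adjusted p = 0.0030). Among 13 electron carriers, 3 fell, led by Etfdh (-0.32 ± 0.09 SE, limma adjusted p = 0.019), and among 7 subunits outside the naming rule 1 fell, Ndufab1 (-0.30 ± 0.09 SE, limma adjusted p = 0.020).

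The ribosomes were counted in the same way. Mitochondrial ribosomal proteins, which make the subunits encoded by mitochondrial DNA, fell in 14 of 76 genes with a median of -0.16, led by Mrpl20 (-0.69 ± 0.10 SE, limma adjusted p = 0.00040). Cytosolic ribosomal proteins fell in 5 of 81 genes, a smaller share than that of all genes, with a median of -0.22 and 79 negative values, led by Rpl30 (-0.42 ± 0.12 SE, limma adjusted p = 0.016). Of 15 regulators of mitochondrial gene expression, 1 rose, the coactivator Ppargc1b (0.57 ± 0.16 SE, limma adjusted p = 0.019), and 1 fell, the mitochondrial transcription factor Tfb2m (-0.25 ± 0.08 SE, limma adjusted p = 0.027). In CR mice 1 gene of all these lists outside the members was called between 15 and 5 months, Mrps14 of the mitochondrial ribosome (-0.35 ± 0.08 SE, limma adjusted p = 0.015). CR against AL mice at either age gave none.

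Since the members moved together, the promoters of the 67 members with a window in RefSeq (GRCm38.p6) were searched for 4 short motifs known from genes of the respiratory chain. Each window holds 250 bases before and 50 bases after a transcription start, and both strands were searched with no overlap between motifs required or excluded. The NRF1 motif, GCGC and TGCGC with any 1 base between them, was in 17 of 67 members (25.4%) and 5.19% of 27025 genes. The ETS motif bound by GABPA, CCGGAAG, was in 16 members (23.9%) and 9.93% of genes. The YY1 motif, AAGATGGC, was in 10 members (14.9%) and 3.19% of genes, and the ERR motif, TCAAGGTCA, was in 2 members (2.99%) and 0.466% of genes. Of the 16 members that fell in AL mice, 14 had a window, and these held the NRF1 motif in 1, the ETS motif in 1, the YY1 motif in 2 and the ERR motif in 0. A match in letters is no evidence of binding, and these counts carry no test.

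The 3 genes of subunit c are shown because they encode the same mature protein and differ in these letters. All are read 5′ to 3′ on the strand of the gene, the minus strand, with motif matches of either strand in capitals. Positions are counted with the first transcribed base as 0. Atp5g1 (chr11:96075582-96075881) had no match, Atp5g2 (chr15:102670998-102671297) had an NRF1 match at position -42, and Atp5g3 (chr2:73911277-73911576) had an ERR match at -52 and an NRF1 match at 12.
Atp5g1: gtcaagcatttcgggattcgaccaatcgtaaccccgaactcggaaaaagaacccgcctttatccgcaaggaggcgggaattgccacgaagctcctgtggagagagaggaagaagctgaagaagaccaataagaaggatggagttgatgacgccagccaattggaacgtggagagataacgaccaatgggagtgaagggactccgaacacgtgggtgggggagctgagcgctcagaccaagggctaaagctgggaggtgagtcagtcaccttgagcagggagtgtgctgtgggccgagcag
Atp5g2: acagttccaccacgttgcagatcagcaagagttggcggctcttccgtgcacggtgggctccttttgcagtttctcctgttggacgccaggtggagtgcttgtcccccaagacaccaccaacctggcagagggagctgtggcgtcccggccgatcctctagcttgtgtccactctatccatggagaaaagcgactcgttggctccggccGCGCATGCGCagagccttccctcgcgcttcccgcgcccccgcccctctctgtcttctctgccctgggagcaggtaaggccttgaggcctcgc
Atp5g3: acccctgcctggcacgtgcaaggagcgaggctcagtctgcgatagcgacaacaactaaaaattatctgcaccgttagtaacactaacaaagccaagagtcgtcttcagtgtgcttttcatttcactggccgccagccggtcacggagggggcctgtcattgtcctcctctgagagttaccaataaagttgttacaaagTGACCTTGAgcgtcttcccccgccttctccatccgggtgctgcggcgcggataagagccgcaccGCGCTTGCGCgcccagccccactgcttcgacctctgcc

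Another set of 3 promoters shows members named above for their level or their comparison: Cox6a1, the second most abundant member, Ndufa3, which fell with age in AL mice, and Sdhd, with the smallest p in CR against AL mice at 15 months. Cox6a1 (chr5:115348909-115349208, minus strand) held NRF1 matches at -162 and -117 and an ETS match at -16. Ndufa3 (chr7:3617123-3617422, plus strand) held a YY1 match at 22. Sdhd (chr9:50603800-50604099, minus strand) held an NRF1 match at -79, an ETS match at -46 and an ERR match at 36. As above, motif matches are in capitals.
Cox6a1: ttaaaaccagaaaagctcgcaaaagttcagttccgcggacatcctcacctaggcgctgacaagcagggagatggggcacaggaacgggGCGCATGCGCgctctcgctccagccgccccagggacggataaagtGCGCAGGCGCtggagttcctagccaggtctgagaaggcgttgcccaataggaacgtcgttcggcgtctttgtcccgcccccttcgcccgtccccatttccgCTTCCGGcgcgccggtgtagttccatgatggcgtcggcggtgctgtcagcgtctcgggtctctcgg
Ndufa3: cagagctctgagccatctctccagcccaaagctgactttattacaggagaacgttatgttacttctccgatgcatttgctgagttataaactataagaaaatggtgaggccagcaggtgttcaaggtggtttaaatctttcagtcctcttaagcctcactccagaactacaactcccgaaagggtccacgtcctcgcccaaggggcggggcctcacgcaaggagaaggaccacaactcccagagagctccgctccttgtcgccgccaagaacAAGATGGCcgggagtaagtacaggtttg
Sdhd: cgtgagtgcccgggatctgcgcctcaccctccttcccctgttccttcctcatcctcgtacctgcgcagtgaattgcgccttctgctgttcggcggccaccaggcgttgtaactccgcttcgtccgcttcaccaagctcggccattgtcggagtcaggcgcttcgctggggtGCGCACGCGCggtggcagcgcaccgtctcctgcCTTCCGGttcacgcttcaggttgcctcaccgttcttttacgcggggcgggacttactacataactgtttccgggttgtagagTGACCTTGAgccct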

How the data were processed

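The authors deposited FPKM for 1 library per mouse: reads were aligned to mm10 with TopHat, likely PCR duplicates were removed with Picard, and levels were estimated with the Cufflinks package with corrections for fragment bias and multi-mapped reads. Tool versions, annotation, strand setting and the sequencing run of each library are not given in the sources used here. FPKM keeps no read count, so the depth behind a value is unknown and errors rest on the variation from mouse to mouse.

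Genes whose FPKM averaged 0.1 or more were analyzed as log2(FPKM + 0.1) with limma 3.58.1 in R 4.3.3 (4 groups in 1 fit, no covariate, eBayes with trend). A check on simulated data changed 200 genes by 1 log2 unit, and 88.5% to 95% of them were recovered. Errors there were drawn separately for each gene, so the check does not cover smaller changes or genes that vary as a block. For single members, all relabelings of the libraries gave an exact two-sided p for the difference in group means. Other steps used Python 3.11.15, pandas 2.3.3, numpy 2.4.6 and matplotlib 3.10.9. The members, lists and tests were chosen with earlier results of these data known. Full statistics are given for up to 12 called members per comparison by smallest p (the 3 smallest where fewer than 3 were called), for isoform families in AL mice with age and in CR against AL at 15 months, and for the leading called gene of each list and direction. The marker lists (10 lists, 64 genes, 62 in the matrix) were written from general knowledge. Exons of 28 members overlap another gene in GENCODE M21, 25 on the other strand and 5 on the same strand, and pseudogene copies may share reads. Alternatives were other pseudocounts, filters and scalings, no trend, fits of the compared groups alone, a block on the replicate number, region and choroid plexus scores as covariates, removal of the transcript length trend and leaving out each library. NanoString values were not analyzed here.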

Additional observations from a re-analysis of the deposited data

Results flagged for a closer look

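In each group, the highest and the lowest library of a named member or of a median member level were set against Dixon's limit for a single outlying value. Of 140 groups of values examined, 17 went past it, where chance flags about 1 in 20.

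Of these, 15 were the same library, CR replicate 2 at 15 months, as the highest of its group. It had 112 FPKM of Uqcrfs1, 218 FPKM of Ndufa12, 337 FPKM of Ndufa3, 160 FPKM of Ndufa1, 201 FPKM of Ndufa5 and 373 FPKM of Ndufb9. It also had 100.2 FPKM of Sdhd, 220.1 FPKM of Cox7a2l, 218 FPKM of Cox7a2 and 233 FPKM of Atp5g2. Its median member level was 0.38 on the log2 scale over all members, and 0.40 for complex I, 0.38 for complex III, 0.43 for complex IV and 0.37 for complex V. The values share 1 library and are not separate events.

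The other two were AL replicate 3 at 5 months, the lowest of its group for Uqcrfs1 at 100.2 FPKM, and CR replicate 4 at 5 months, the highest of its group for Cox7a1 at 9.36 FPKM.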

How the results depend on the processing

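The median over members moved by less than 1 SD of the library levels (0.15) in every comparison and setting. Outside AL mice with age this SD exceeded the median itself, so a median falling to 0 would also have stayed within it. In CR against AL at 15 months the median went from 0.12 to 0.05 without CR replicate 2. Scaling to the summed FPKM of each library was not among the settings. In those that were run, the sign was kept except in CR against AL at 5 months, where the median was near 0. There it was 0.0075, -0.0070 with libraries shifted to a common median, and -0.029 to 0.050 with 1 library left out. In AL mice between 15 and 5 months the median over members was -0.14 with quantile normalization and -0.29 with a common median. Quantile normalization kept 12 members called, with 3354 of all genes, against 3502 in the main fit. The number of members called there was 26 with a common median (3727 of all genes). It was 34 in a separate fit of the groups compared (4313 of all genes) and 28 with the replicate block (3754). As covariates, the region score left 0 members (1 of all genes) and the choroid plexus score 1 (1061). With 1 library left out, 7 to 35 members were called (2382 to 3919 of all genes). In CR mice the number of members called was 0 in the separate fit (324 of all genes, against 570 in the main fit). It was also 0 with the replicate block (617), the region score (139) and the choroid plexus score (0). With 1 library left out it was 0 to 6 (331 to 775 of all genes). With the older CR mice set against the younger AL mice it was 0 to 7 with 1 library left out (181 to 925 of all genes). The cause of these shifts was not tested. Pseudocounts, filters and the trend left each of these member counts unchanged. Over all genes tested, 31 same-numbered library pairs had deviations from their group means that correlated at -0.14 to 0.16, with 2 pairs over 0.1. The correlation was not computed over the members alone, where replicates 0 and 3 were the lowest at 5 months in both diets. Replicate numbers follow the order of the sample numbers within each group, and the labels state no pairing between groups. Whether same-numbered libraries share a processing step was not tested.

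Single members turned direction under some settings. With the choroid plexus score, Cox6b2 in CR mice was at 0.079, and in AL mice with age Cox6b2 was at 0.12, Cox7b2 at -0.27 and Cox8b at 0.18. With the region score in AL mice, Cox6a1 was at 0.049 and Cox8a at 0.011, and with quantile normalization Cox7a2l was at 0.015. In CR against AL at 15 months, Cox7a1 was at 0.010 with quantile normalization and at 0.031 with the length trend removed, and Ndufa4l2 was at 0.012 with a common median and at 0.097 with quantile normalization. With 1 library left out, the ranges there were -0.26 to 0.089 for Cox7a1, -0.086 to 0.035 for Ndufa4l2, -0.054 to 0.10 for Cox7a2l, -0.0054 to 0.14 for Cox7b and -0.018 to 0.099 for Atp5g2, the last 3 below 0 without CR replicate 2.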
